A study of Homo sapiens with 6 samples.

Results

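The 100 Kb bins that lay in compartment A throughout the parental time course and in compartment B in tamoxifen-resistant cells were described here. They were selected on the measured scores, as the autosomal bins with a score above 0 in the libraries T0, T1, T4, T16 and T24 and below 0 in TamR. There were 1047 such bins, among 11383 that were A in all 5 parental libraries, 26484 autosomal bins with a score in all 6 libraries, 28823 autosomal bins and 30376 bins in all. The other 10336 parental A bins stayed A.

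T47D is an established breast cancer cell line that carries the estrogen receptor and depends on estrogen for growth. Parental T47D cells were starved of hormone for 72 h and taken either without estradiol (E2), which is T0, or after 1, 4, 16 or 24 h with 100 nM E2 (T1, T4, T16 and T24), and the sixth library came from a tamoxifen-resistant T47D line (TamR), which is 1 derived line. The sample labels call the TamR cells untreated, while the methods of the study describe their medium as charcoal-stripped with 100 nM tamoxifen. By the same methods, the starved parental cells were in charcoal-stripped serum too, at a lower percentage. Resistance, drug and medium thus cannot be told apart in the step from parental cells to TamR. Contacts were mapped by tethered conformation capture (TCC), a form of Hi-C with ligation on a solid surface, and the authors deposited for each bin the first eigenvector of the contacts between chromosomes. Each condition is 1 library without a repeat, so differences between conditions were described and not tested. The number of contacts behind each library is not in these files.

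Chromosomes fold so that gene-rich, transcribed regions contact each other and form compartment A, and gene-poor, silent regions contact each other at the nuclear lamina and the nucleolus and form compartment B. The sign of the eigenvector gives the compartment, and its size says how strongly a bin takes part in the pattern within its own library. In luminal breast cells, estrogen receptor binds DNA at estrogen response elements, which are inverted repeats of a short half-site, and tamoxifen competes with estrogen for the receptor. All scores below are given multiplied by 1000, and bins and runs are placed on hg19 (GRCh37).

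The bins held 82 matches to the full estrogen response element GGTCANNNTGACC, and 13 of them lay in runs of bins that also held the start of a listed gene of estrogen response or growth factor signalling. These 13 are shown only as places where receptor motifs and named genes shared a stretch of DNA. Those stretches were A in parental cells and B in TamR. Whether 13 of 82 exceeds what the number of bins in these runs would give was not tested. Each of the 13 is printed 5′ to 3′ on the plus strand of GRCh37 with 10 bases on either side, in lower case with the match in capitals. The element reads the same on both strands apart from its middle bases.
GREB1 intron, chr2:11653026-11653058: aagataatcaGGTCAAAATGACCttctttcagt
GREB1 intron, chr2:11664716-11664748: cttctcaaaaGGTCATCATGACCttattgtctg
GREB1 intron, chr2:11672650-11672682: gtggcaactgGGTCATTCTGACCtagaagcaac
DOCK10 intron, chr2:225852365-225852397: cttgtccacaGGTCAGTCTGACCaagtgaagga
NYAP2 intron, chr2:226480377-226480409: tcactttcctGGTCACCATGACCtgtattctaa
between genes, nearest NYAP2, chr2:226826489-226826521: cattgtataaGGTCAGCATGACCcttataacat
between genes, nearest NYAP2, chr2:227046538-227046570: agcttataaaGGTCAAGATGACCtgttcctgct
SIAH2 intron, chr3:150474421-150474453: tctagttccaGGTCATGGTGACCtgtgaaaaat
between genes, nearest SUCNR1, chr3:151665950-151665982: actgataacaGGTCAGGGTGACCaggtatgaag
between genes, nearest CD180, chr5:66915648-66915680: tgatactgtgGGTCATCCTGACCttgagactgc
between genes, nearest PIK3R1, chr5:67232160-67232192: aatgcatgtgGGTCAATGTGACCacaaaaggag
ATRNL1 intron, chr10:117673905-117673937: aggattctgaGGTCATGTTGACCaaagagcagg
between genes, nearest IRS2, chr13:110522699-110522731: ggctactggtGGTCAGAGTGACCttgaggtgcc

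Of these, 3 matches lay in introns of GREB1 and 1 in the intron of SIAH2, both of them genes induced by estrogen, and 4 lay in the chromosome 2 run that ended near IRS1. Of all 82 matches, 36 lay in introns, 4 in exons and 42 between genes. The frequency of the motif was close to that of the scored genome. The motif was present in 77 of the 1047 bins (7.35%), in 9.11% of the 10336 bins that stayed A and in 7.26% of all 26484 scored autosomal bins, and its density was 0.783 per Mb against 0.970 per Mb in the bins that stayed A. A match describes letters in the sequence and no receptor binding was measured.

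The promoters of the listed genes were sought in RefSeq (GRCh38.p14, 250 bases before to 50 after each start). The table held 37 promoters of these genes and none of GREB1, MYC, GFRA2, NCOA2 or TBX3. Genes with several promoters, some of them overlapping, count more than once in the 37. Of the 37, 10 (27.0%) held the half-site GGTCA or TGACC, against 37.4% of all 35116 promoters. None of the 37 held the full element, against 20 of all 35116 (0.057%), a share at which none among 37 says little. IRS1, an adapter that couples insulin and IGF receptors to PI3K, and PGR, the progesterone receptor, are shown because their start bins were among the lowest of the listed genes in TamR. They are printed 5′ to 3′ on the strand of the gene, with the half-site in capitals where there is one, and PGR has further promoters in the table. GFRA1 scored lower still, at −7.85, but its several promoters, none with a half-site, are not printed.
IRS1 promoter, chr2:226799771-226800070, minus strand: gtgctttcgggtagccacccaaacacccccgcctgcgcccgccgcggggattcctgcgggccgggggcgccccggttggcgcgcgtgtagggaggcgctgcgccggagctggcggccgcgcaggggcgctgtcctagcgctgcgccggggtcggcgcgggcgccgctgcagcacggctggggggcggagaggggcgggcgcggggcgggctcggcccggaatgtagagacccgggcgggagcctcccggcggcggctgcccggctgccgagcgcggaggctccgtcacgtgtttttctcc
PGR promoter, chr11:101129028-101129327, minus strand: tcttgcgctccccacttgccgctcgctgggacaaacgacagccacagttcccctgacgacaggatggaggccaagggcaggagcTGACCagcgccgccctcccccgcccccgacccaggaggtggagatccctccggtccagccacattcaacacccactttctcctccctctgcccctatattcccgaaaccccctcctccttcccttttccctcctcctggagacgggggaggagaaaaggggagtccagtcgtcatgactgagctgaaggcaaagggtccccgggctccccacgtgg
The IRS1 promoter was 79.3% G and C with 47 CpG dinucleotides, and the printed PGR promoter was 64.3% G and C with 15. The further PGR promoters held 66.0% and 44.3% G and C. The median of the 1047 bins was 39.7%, but it is taken over bins of 100 Kb and not over 300 bases, so the values are not alike.

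The step to B in TamR took 1047 of 11383 parental A bins, which is 9.2% (95% Wilson interval 8.68 to 9.74%). In the other direction, 1589 of 13237 parental B bins became A, or 12%. Since the bins were selected by this comparison, these shares describe the set and nothing is read from them. Intervals are taken over bins, neighbouring bins are not independent, and the intervals are therefore too narrow. Of 1646 bins that were A at T0 and B in TamR, 1047 (63.6%) were A at all E2 times as well. Bins that were A in only some parental libraries were B in TamR more often, at 296 of 650 bins (45.5%) for A in 4 of 5 and 1003 of 1864 (53.8%) for all bins of mixed parental sign.

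The bins were weakly A before they were B. Their median score at T0 was 1.85, followed by 1.67, 1.96, 1.72 and 1.26 at the successive E2 times, and it was −1.34 in TamR, where the lowest bin scored −9.45. The bins that stayed A had medians of 5.78, 5.56, 5.66, 5.61 and 5.44 at the same parental times and 5.81 in TamR. By rank among the scored autosomal bins, the median bin of the set stood at percentile 62.4 at T0 and 44.5 in TamR, and the median bin that stayed A at percentile 80.5 and 80.1. T24 was the lowest of the 5 parental libraries in 566 of the 1047 bins (54.1%), against 33.0% of the bins that stayed A. These values were used to select the bins and are descriptions.

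**Figure D1:**
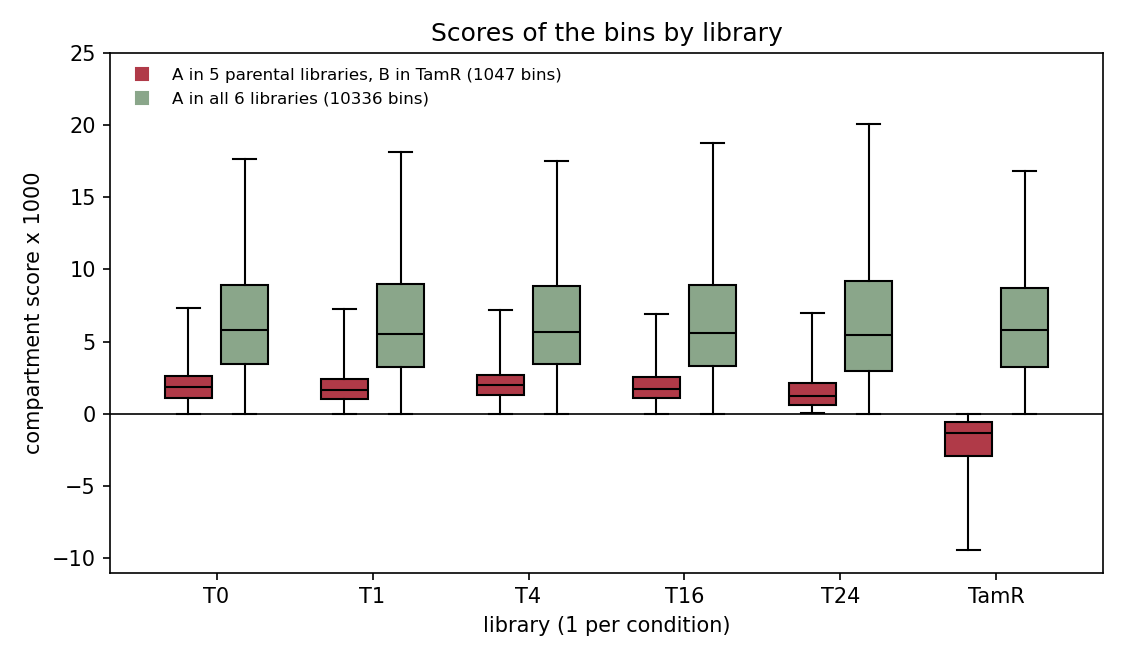
Compartment score (multiplied by 1000) in each of the 6 libraries for the 1047 bins that became B and the 10336 bins that stayed A. Boxes span the quartiles, lines mark medians and whiskers reach the lowest and highest bin. The medians of the set lie between 1.26 and 1.96 in the parental libraries and at −1.34 in TamR.

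Few bins went from strong A to strong B. In TamR, 432 bins (41.3%) scored between −1 and 0, 615 (58.7%) below −1, 250 (23.9%) below −3 and 101 (9.65%) below −5, and 81 (7.74%) were at or below the median of the bins that stayed B. A lowest parental score above 1 together with a TamR score below −1 was found in 304 bins (29.0%), and above 3 with below −3 in 16 bins (1.53%). Along deciles of the mean parental score, the share that became B went from 39.6% in the lowest decile to 28.0%, 14.1%, 7.47%, 1.93%, 0.615% and 0.264%, and was 0 of 1138, 0 of 1138 and 0 of 1139 in the 3 highest, each of which allows a share of up to 0.336% by the Wilson interval. In these libraries the bins all came from the lower 7 deciles of parental A.

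The bins nearest to the border show how fine the selection was. Just inside, a bin at chr11:122900001-123000000 scored −0.00110 in TamR, and just outside, a bin at chr10:114400001-114500000 scored 0.00323 and counts as A. On the parental side, the lowest score kept was 0.000355, in a bin at chr10:8900001-9000000 that scored −2.32 in TamR, and the nearest bin left out had a lowest parental score of −0.00215.

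The 1047 bins formed 360 uninterrupted runs. Their median length was 200 Kb, their mean 291 Kb and the longest 3200 Kb. Single bins made up 170 runs (47.2%) but 16.2% of the bins, 128 runs had 2 to 4 bins, 48 had 5 to 9, and 14 had 10 or more and held 228 bins (21.8%). Longer runs were further from the border on both sides of the step. Median parental scores were 1.09 in runs of 1 bin, 1.44 in runs of 2 to 4, 1.81 in runs of 5 to 9 and 2.33 in runs of 10 or more, and median TamR scores were −0.513, −0.827, −1.94 and −3.22 in the same order.

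Each run was classed by walking outward on both sides through bins that were B in TamR, until a bin that was B in all 5 parental libraries or a bin that was A in TamR was met. Growth of a neighbouring B compartment on 1 side was the most frequent form, with 182 runs and 524 bins, or 50.05% of bins (47.02 to 53.1%). Another 52 runs with 172 bins (16.4%, 14.3 to 18.8%) were A blocks closed between B compartments on both sides. New B blocks with A on both sides were 111 runs with 312 bins (29.8%, 27.1 to 32.6%). Here A means A in TamR, whatever the parental sign of the bin that was met. The last 15 runs with 39 bins (3.72%) met a bin without a score or a chromosome end and were not classed. Where the nearest neighbouring bin alone decides each side, 9.07% of bins extended B on 1 side, 1.05% were closed and 23.7% were new inside A, the rest having a neighbour of mixed parental sign or without a score.

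The sizes of the blocks around a run follow in part from how the classes are defined. The B block of TamR that held a run had a median of 39 bins for extensions, 75 bins for closed blocks and 2 bins for new blocks, of which 61 of 111 runs (55.0%) were a single bin. The parental A block that held a run had a median of 9 bins for extensions, 2 bins for closed blocks and 27 bins for new blocks. New blocks started from the highest parental scores, with a median of 2.24, and reached the least negative TamR scores, with a median of −0.869. The medians were 1.58 and −1.31 for extensions and 1.18 and −1.91 for closed blocks. New blocks had 0.346 protein-coding gene starts per bin, closed blocks 0.459 and extensions 0.576.

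Most parental A blocks kept all their bins in A. Of 657 uninterrupted parental A blocks, 383 held none of the bins, 165 became B in part and 109 became B over their whole length, with 327 bins. The share lost whole was 35.4% of 127 blocks of 1 bin, 28.3% of 145 blocks of 2 to 4 bins, 15.9% of 113 blocks of 5 to 9 bins, 5.10% of 98 blocks of 10 to 19 bins and 0 of 174 longer blocks. Of the blocks of 1 bin, which cannot be lost in part, 82 stayed A. Blocks lost whole included 1 on chromosome 15 with TRPM1 and KLF13 (8 bins), 1 on chromosome 4 with PDLIM5 and BMPR1B, a receptor for bone morphogenetic proteins (7 bins), and 1 on chromosome 11 with CADM1, a cell adhesion molecule (5 bins). These genes, unlike those of the longest runs below, were named after their values were seen.

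The share that became B fell with distance from parental B. It was 31.3% (25.9 to 37.2%) for parental A bins next to a parental B bin, 27.7% at 2 bins, 24.5% at 3, 20.05% at 4 to 5, 11.4% at 6 to 10, 6.29% at 11 to 20 and 3.76% (3.27 to 4.32%) beyond 20 bins. Parental scores moved with distance, from a median of 1.03 next to B to 7.996 beyond 20 bins, and their part in the gradient was not tested. The median distance was 6 bins for the set and 19 bins for the bins that stayed A, and it was 20 bins for the new blocks inside A. Of parental A bins within 10 Mb of a chromosome end 4.61% became B, against 10.3% of those farther in.

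**Figure D2:**
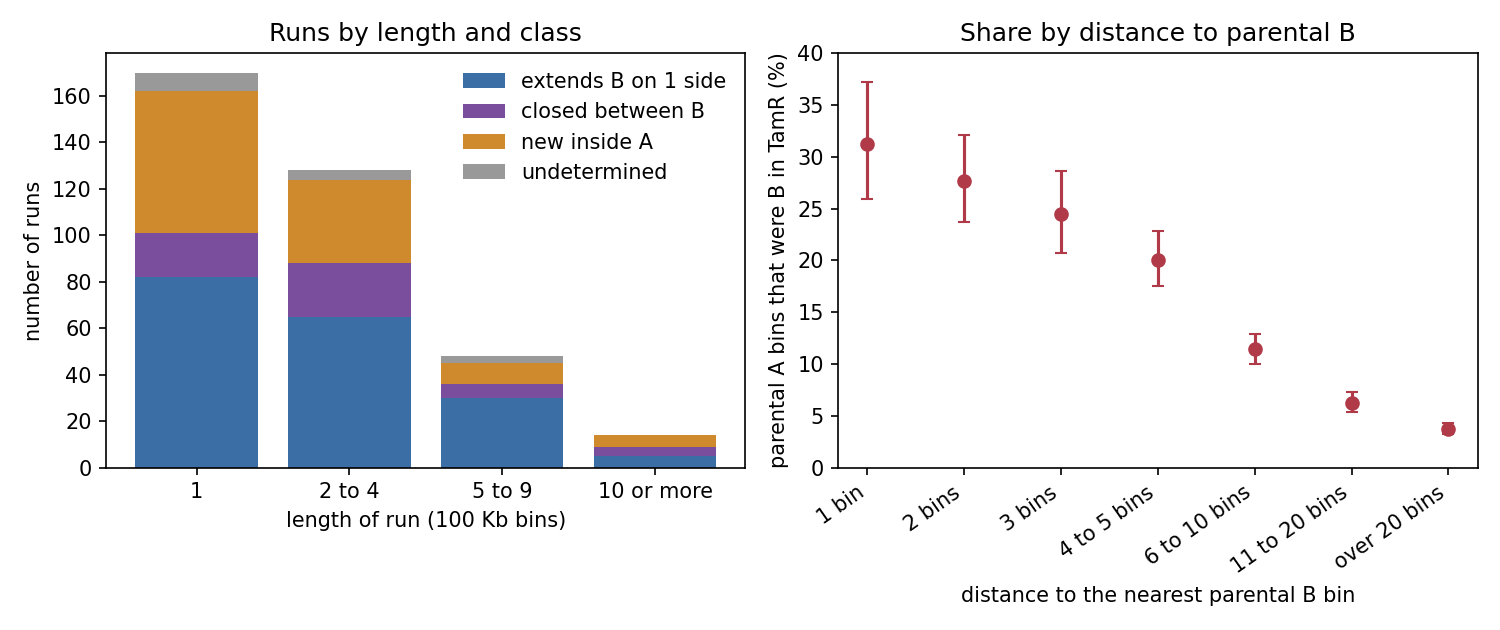
Left, number of runs by length in 100 Kb bins, coloured by class. Right, percent of parental A bins that were B in TamR by distance to the nearest parental B bin, with 95% Wilson intervals over bins. Single-bin runs are the most numerous (170 of 360), and the share goes from 31.3% next to B to 3.76% beyond 20 bins.

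Chromosomes lost A to very different extents. Chromosome 5 had the highest share, with 145 of 641 parental A bins (22.6%, 19.6 to 26.0%), followed by chromosome 8 with 17.6%, chromosome 4 with 17.5%, chromosome 18 with 16.0% and chromosome 2 with 129 of 962 bins (13.4%). The intervals of chromosomes 4, 5, 8 and 18 overlapped each other. At the other end were chromosome 22 with 4 of 308 bins (1.30%), chromosome 16 with 4 of 388 (1.03%) and chromosome 19, where 0 of 443 bins became B, which allows up to 0.860%. All 15 bins of chromosome 17 belonged to 1 run. Chromosome 5 also stood out by class, with 15 of the 52 closed blocks and 67 of the 172 bins in them, whereas on chromosome 8 extensions made up 64 of 75 bins. On chromosome 5 only 50 of 969 parental B bins (5.16%) became A, so that A lost 95 more bins than it gained there.

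Over the 22 autosomes, the share that became B went with low gene density (Spearman −0.804 with protein-coding gene starts per bin), low G and C content (−0.761) and low parental scores (−0.864). The relation to the share of parental B that became A was weaker, at −0.337. Parental scores were used to select the bins, so the relation to them is not independent of the selection. These are descriptions over 22 chromosomes of 1 library per condition, and the 3 properties go together on chromosomes.

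**Figure D3:**
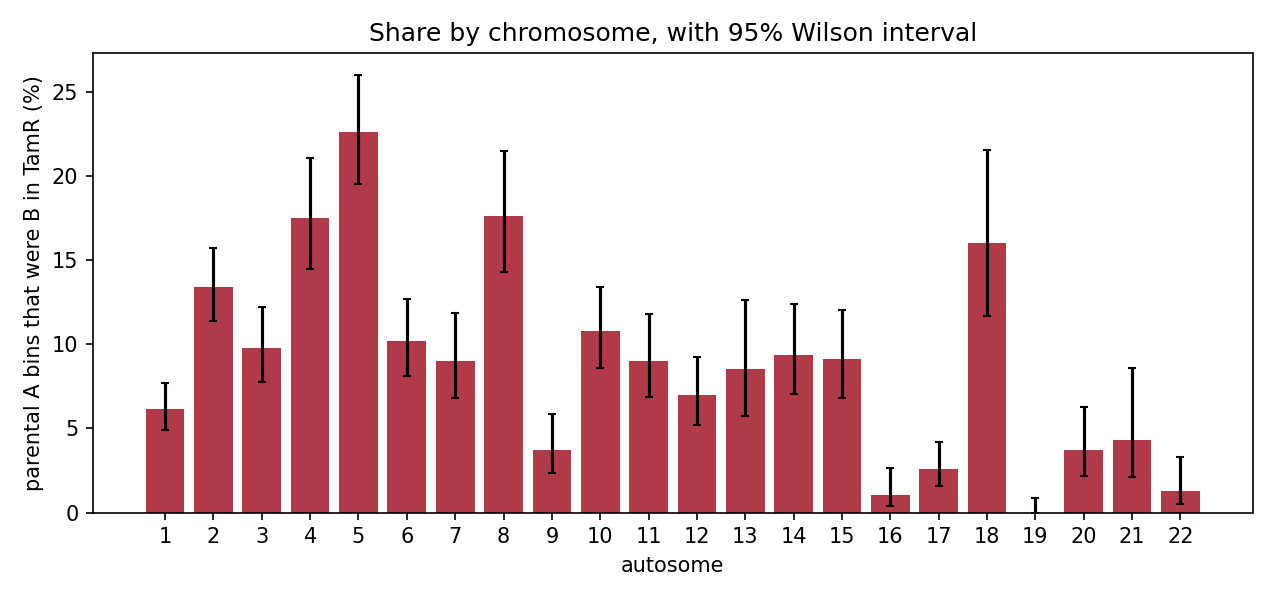
Percent of parental A bins that were B in TamR on each autosome (bars), with 95% Wilson intervals over bins (lines). Chromosome 5 is highest at 22.6% and chromosome 19 is at 0 of 443 bins.

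Sequence and gene content were not used in the selection. The bins held less G and C than the A they left, with a median of 39.7% against 44.1% in bins that stayed A, 37.3% in bins that stayed B and 39.5% in parental B bins that became A. They had 0.489 protein-coding gene starts per bin against 1.32 in bins that stayed A, and 371 bins (35.4%) held any such start against 62.1%. HindIII sites, at which the assay cuts the DNA, numbered a median of 30 per bin against 25. Taken within quartiles of the parental score and pooled, the difference in G and C content was −1.83 percentage points rather than −4.45. That in gene starts was −0.299 per bin rather than −0.834. The part of parental scores in the contrast was not tested. In the lowest quartile, 861 bins of the set had a median of 39.4% and 1985 bins that stayed A had 41.3%. In quartile 2 the medians were 41.0% for 176 bins and 42.3% for 2670. Quartile 3 went the other way, with 46.2% in only 10 bins of the set and 44.5% in 2835 that stayed A.

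Fewer genes than bins made the step. Of 14186 protein-coding genes that start in parental A, 512 (3.61%, 3.31 to 3.93%) started in a bin that became B. The share was 6.18% for 10728 genes of long noncoding RNA, 5.51% for microRNA genes and 7.84% for processed pseudogenes. The 512 genes were longer, with a median of 58.2 kb against 24.0 kb for genes of bins that stayed A, and of 86 genes of parental A with at least 500 kb, 13 (15.1%) were among them.

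Estrogen-responsive genes had the highest share among the 6 lists of breast cancer genes, with intervals that overlapped those of the other lists. Of 33 estrogen targets that start in parental A, 7 (21.2%, 10.7 to 37.8%) were in bins that became B: BCL2, GFRA1, GREB1, IRS1, MYC, PGR and SIAH2. Luminal transcription factors and receptor coregulators had 4 of 32 (12.5%, ESR1, GATA3, NCOA2 and TBX3), and growth factor and PI3K signalling had 7 of 46 (15.2%, GFRA1, GFRA2, INPP4B, IRS1, IRS2, PIK3R1 and SOS1). Cell cycle genes had 1 of 20 (MYC), genes of epithelial-mesenchymal transition and adhesion 1 of 21 (SERPINE2), and drug handling genes 0 of 16. Together the lists gave 17 of 161 genes (10.6%, 6.70 to 16.3%) against the 3.61% of all genes.

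The lists are no independent evidence, because some of these genes were known from earlier results of the same data to lie in switched regions. Without 8 such genes, the union had 11 of 153 (7.19%, 4.06 to 12.4%) and the estrogen targets 3 of 27 (11.1%, 3.85 to 28.1%), with lower bounds close to 3.61%. Estrogen targets as a group did not leave A, since the median score of the 33 genes was 8.16 at T0 and 6.46 in TamR. Among control lists, 2 of 71 ribosomal protein genes, 0 of 55 keratin genes and 5 of 383 ZNF genes were in bins that became B. No transcript levels were measured in these files.

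Of the luminal factors and coregulators, the 4 in the set had TamR scores between −1.64 and −0.0508, and the other 28 of the 32 genes stayed A. ESR1, the estrogen receptor gene, starts in a bin that scored 4.90 at T0, 4.03 at T1, 3.94 at T4, 3.68 at T16, 3.26 at T24 and −0.0508 in TamR. Of the 6 bins across its body 5 belonged to the set and 1 was of mixed parental sign, with TamR scores between −0.813 and −0.0508, so the whole gene was barely on the B side. The start bin of GATA3, a transcription factor of luminal identity, scored 2.12, 0.711, 1.53, 1.19 and 0.932 at T0, T1, T4, T16 and T24 and −0.790 in TamR. TBX3, a T-box factor, scored between 1.28 and 2.48 in the parental libraries and −0.753 in TamR. NCOA2, a coactivator of nuclear receptors, scored between 0.610 and 1.89 and then −1.64, with all 4 bins of its body in the set as a closed A block.

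PGR had a lower TamR score than any of these 4 genes. The start bin of PGR, the progesterone receptor and a classical estrogen target, scored 0.171 at T0, 1.27 at T1, 1.02 at T4, 0.993 at T16, 0.796 at T24 and −6.92 in TamR. Its parental scores were close to 0, and the A block that held the start bin had 2 bins. Of the 2 bins across the body of PGR, 1 belonged to the set and 1 was of mixed parental sign, with TamR scores between −6.92 and −6.32.

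The other estrogen targets went from moderate or weak A to B. GREB1, a cofactor of the receptor, scored 5.10, 5.01, 5.54, 5.36 and 4.56 at T0, T1, T4, T16 and T24 and −0.326 in TamR, and both bins of its body belonged to a run of 3 that extended B. SIAH2, a ubiquitin ligase, scored between 4.86 and 5.50 and then −0.925, at the edge of a run of 13 bins whose lowest TamR score was −8.50. BCL2, an inhibitor of apoptosis, scored between 1.14 and 2.58 and then −1.84, with all 3 bins of its body in an A block that was lost whole. MYC, a transcription factor of growth, scored between 0.159 and 0.965 and then −1.55, in a run of 1 bin.

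Among the signalling genes, GFRA1 had the lowest TamR score. GFRA1, the coreceptor of RET for the ligand GDNF, scored 4.64 at T0, 3.95 at T1, 3.61 at T4, 2.90 at T16, 3.54 at T24 and −7.85 in TamR, from percentile 75.5 to percentile 7.94 of bins. IRS1 scored 1.83, 1.85, 2.79, 2.29 and 1.05 in the parental libraries and −4.86 in TamR, and IRS2, its relative, scored 1.85, 1.81, 2.43, 1.68 and 0.466 and then −3.40. PIK3R1, the regulatory subunit that restrains and stabilises PI3K, scored 3.95, 3.03, 2.78, 2.99 and 2.94 and then −3.66.

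GFRA2, a coreceptor of the same family as GFRA1, scored between 3.22 and 3.85 in the parental libraries and −1.88 in TamR. SERPINE2, a protease inhibitor, scored between 1.28 and 2.95 and then −2.10. Of the large genes, 2 were B only in part, namely INPP4B, a phosphatase of the PI3K pathway, with 4 of 9 bins and a start bin at −0.627, and SOS1, an activator of RAS, with 1 of 3 bins and a start bin at −0.335. In all 17 genes the TamR score lay below every parental score, as the selection requires.

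**Figure D4:**
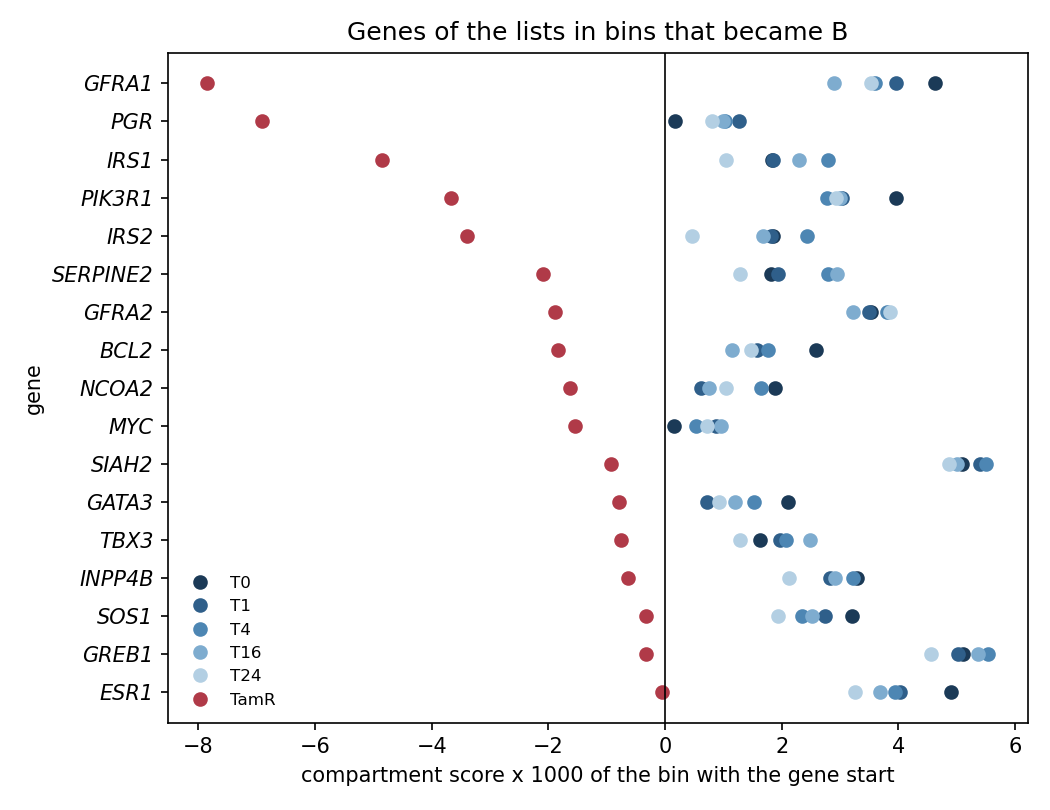
Compartment score (multiplied by 1000) of the bin with the start of each of the 17 listed genes, in the 5 parental libraries (blue, dark for T0 to light for T24) and in TamR (red). ESR1 lies at −0.0508 in TamR and GFRA1 at −7.85, with the other genes between.

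The longest run was at chr2:224800001-228000000, with 32 bins, and extended a B compartment on its right. Its mean score was 2.29 at T0, 2.44 at T1, 2.87 at T4, 2.66 at T16, 1.69 at T24 and −5.03 in TamR. It held WDFY1, SERPINE2, CUL3 (the scaffold of a ubiquitin ligase), DOCK10 (an exchange factor of small GTPases), NYAP2 and IRS1. In the 2 Mb before it the mean parental score was 4.77 and the TamR score 1.87, with 17 of 20 bins still A in TamR, and in the 2 Mb after it they were −4.21 and −5.90. Of the elements printed above, 4 lay in this run.

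The run of 30 bins at chr5:65300001-68300000 was a new B block with A on both sides. Its mean scores were 2.49, 2.41, 2.51, 2.58 and 2.37 at T0, T1, T4, T16 and T24 and −4.39 in TamR, and it held SREK1, MAST4 (a kinase), CD180 (a Toll-like receptor relative) and PIK3R1. On its left 2 bins stayed A, at 0.602 and 0.632 in TamR. The 2 bins before them were A in all 5 parental libraries and B in TamR, and so belong to the set. The 16 bins before those were B in parental cells and in TamR. Its class as a block inside A thus rests on 2 bins of low score.

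The run of 26 bins at chr10:116500001-119100000 was also classed as a new block inside A. Its mean scores were 4.70, 4.08, 4.32, 3.73 and 3.66 in the parental libraries and −5.59 in TamR, with the lowest TamR score of all bins of the set, −9.45. It held ABLIM1, TRUB1, ATRNL1, GFRA1, PNLIP (pancreatic lipase) and SLC18A2, the vesicular monoamine transporter. In the 2 Mb on either side, the mean parental scores were 3.81 and 5.61 and the mean TamR scores 0.896 and 2.25, with 18 of 20 and 16 of 20 bins A in TamR. Mean TamR scores were therefore lower than mean parental scores in the flanks as well, on the A side of the border. Next to the run on its left, bins scored 0.355 and 0.0665 in TamR, and the bins before those −1.44 and −0.278. Its class on that side thus rests on bins of low TamR score, as on chromosome 5.

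**Figure D5:**
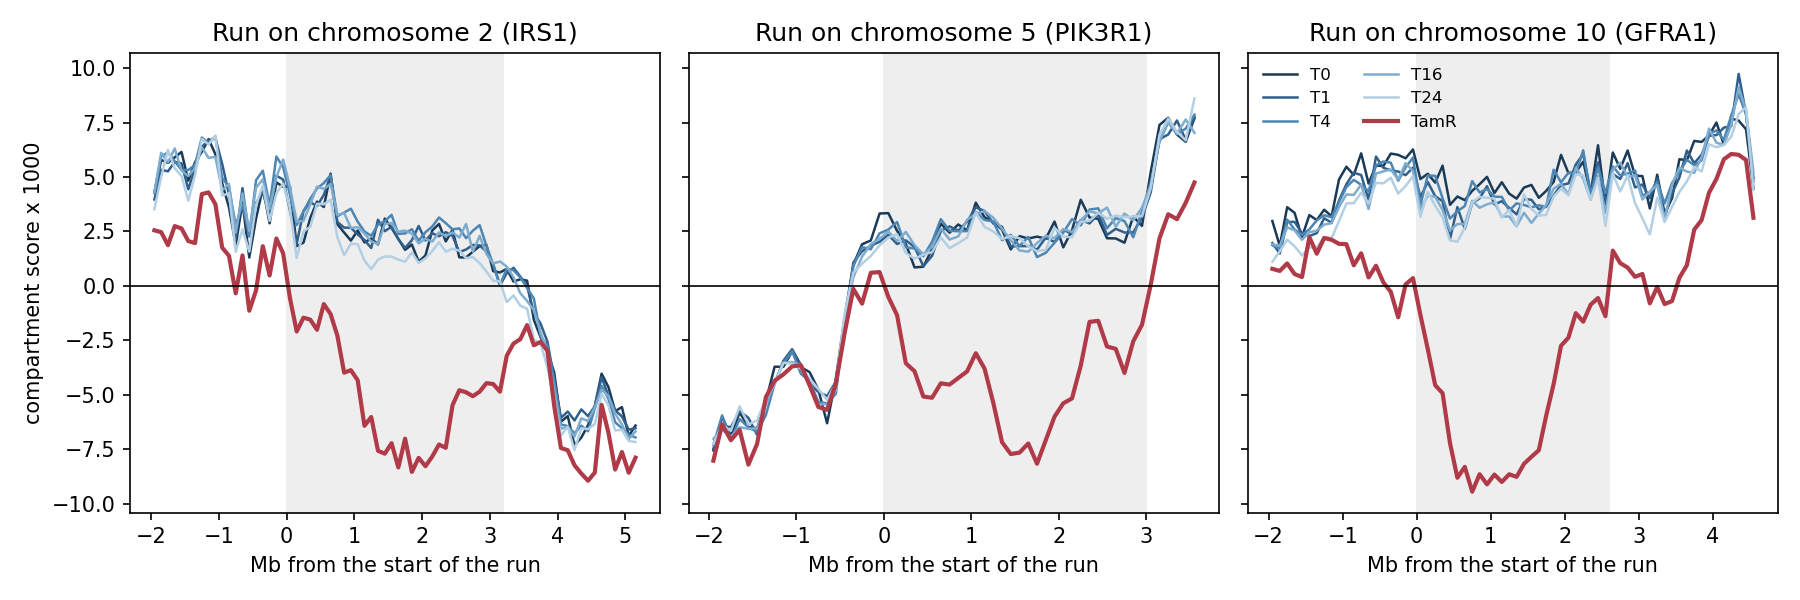
Compartment score (multiplied by 1000) in the 6 libraries along the 3 longest runs and up to 2 Mb on each side, by distance in Mb from the start of the run. The grey band is the run. Parental libraries (blue) stay close to each other and above 0 in the band, and TamR (red) falls to −8.55, −8.17 and −9.45 in the chromosome 2, 5 and 10 runs.

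The HOXD cluster lay in 1 of the other long runs. The run at chr2:176800001-178200000, 14 bins long, was an entire parental A block and contained EVX2 and the HOXD genes, which pattern limbs and the body axis. Its mean score was 1.52 at T0, 2.36 at T1, 2.77 at T4, 2.81 at T16, 2.36 at T24 and −2.94 in TamR. All 9 HOXD genes were in the set, out of 39 HOX genes that start in parental A, and the other HOX genes stayed A. The 9 share 2 start bins, at −1.78 and −2.32 in TamR, and are not independent of each other. The HOX list was drawn up after these values were seen.

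The run at chr17:63200001-64700000, 15 bins, was a new block inside A with AXIN2 (an inhibitor of Wnt signalling), CEP112, APOH and PRKCA (protein kinase C alpha). Its mean went from 2.80 at T0 to −2.49 in TamR. The run at chr3:150400001-151700000, 13 bins, extended B and held SIAH2, MED12L, P2RY12 (an ADP receptor), AADAC and SUCNR1, and its mean went from 2.97 to −5.11. At chr14:33000001-34300000, 13 bins inside A held the start of NPAS3, a transcription factor of neurons, and went from 3.31 to −2.57.

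The GATA3 run at chr10:7900001-9200000, 13 bins, was a whole A block closed between B compartments. Its mean was 1.88 at T0, 0.556 at T1, 1.34 at T4, 1.13 at T16, 1.04 at T24 and −1.34 in TamR, and GATA3 was the only protein-coding gene that started in it. The run at chr18:10500001-11700000, 12 bins inside A, held NAPG, PIEZO2 (a mechanosensitive channel), SLC35G4 and GNAL (a G protein subunit), and its mean went from 1.55 to −3.15.

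Chromosome 5 had 5 of the 15 different runs named here by length, over all and within each class. The gene-free closed block at chr5:104200001-105800000, 16 bins, went from a mean of 2.90 at T0 and 0.999 at T24 to −2.92 in TamR, in a TamR B block of 156 bins. The closed block at chr5:102000001-103200000, 12 bins, joined the same stretch and held PAM, an enzyme that amidates peptide hormones, and went from 1.87 to −2.51. At chr5:117900001-118800000, 9 bins with TNFAIP8 and HSD17B4 (an enzyme of peroxisomal fatty acid oxidation) went from 1.46 to −3.90. The extension at chr5:169600001-170800000, 12 bins with LCP2, KCNIP1, GABRP and TLX3, went from 1.50 to −1.03.

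Of the remaining named runs, the extension at chr4:138900001-139900000, 10 bins, held 1 protein-coding start, that of SLC7A11, the cystine transporter, and went from a mean of 1.35 at T0 to −3.81 in TamR. The closed block at chr6:82900001-83900000, 10 bins with IBTK, TPBG, UBE3D and DOP1A, went from 1.56 to −1.08.

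The largest single steps from T0 to TamR, taken from different runs, were in bins without a gene start or with 1 start. The bin at chr10:117400001-117500000, inside ATRNL1, went from 5.01 to −9.12. The bin at chr2:226200001-226300000, with the start of NYAP2, went from 3.09 to −7.71. The bins at chr5:67000001-67100000 and chr5:117300001-117400000 held no gene start and went from 2.26 to −8.17 and from 1.94 to −7.66. The bin at chr3:151400001-151500000, with the start of AADACL2, went from 2.11 to −8.28.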

How the data were processed

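TCC compartments of T47D cells were analysed in 6 libraries, 1 for each of T0, T1, T4, T16, T24 and TamR. The authors deposited 1 score per 100 Kb bin of hg19 and library. According to the methods of the study, reads were aligned iteratively with bowtie2, contacts were binned with HiCLib, sparsely covered bins were dropped, extreme counts between chromosomes were capped, iterative correction was applied, and the first eigenvector was taken after removal of all contacts in cis. The reporting summary of the study gives Bowtie2 2.1.0 and a dated HiCLib release, and pooling of replicate cultures is not stated for T47D. Such scores are scaled within a library, so signs and ranks compare between libraries better than sizes do. A score of 0 marks a bin without a value, and bins with a 0 in any library were left out. Depth is unknown, so no counting error of a score could be given.

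The sign was used as deposited. The members and the gene lists were chosen with earlier results of these data known. Neighbouring member bins were joined into runs, which a bin without a score ended, and were classed by both sides. Sequence content was read from GRCh37, whose chromosome lengths match the bins, and genes from GENCODE v44 lifted to GRCh37, each placed by its start. Named were the 10 longest runs, the 5 longest of each class, the 5 bins with the largest T0 minus TamR score in different runs, up to 6 genes per run (of the gene lists first, then of well-known function) and every listed gene in a member bin. Ties were broken by the larger mean T0 minus TamR score. The 6 lists covered estrogen targets, luminal factors and coregulators, growth factor and PI3K signalling, cell cycle, epithelial-mesenchymal transition, and drug handling, with ribosomal protein, keratin and ZNF genes as controls. Shares have 95% Wilson intervals, and no test between conditions was made. Python 3.11.15, numpy 2.4.6, pandas 2.3.3, scipy 1.17.1 and matplotlib 3.10.9 were used. The rules for runs and classes were tested on simulated tracks with planted runs. Alternatives changed the border, weak bins, bin size, parental reference, chromosomes, libraries, neighbours and gene assignment.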

Additional observations from a re-analysis of the deposited data

How the results depend on the processing

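The share of parental A bins that became B was 9.20%, and it depended most on weak bins, at 3.47% once bins whose absolute score fell under the 10th percentile of any library were dropped and 0.609% under the 25th. These settings remove bins near the border by construction. It was 10.8% with the border at each library's median, 13.2% for A in T0 alone, 12.4% for A in at least 3 of 5 parental libraries and 8.59% in 1 Mb bins. With 1 parental library or 1 chromosome left out it ranged from 8.40 to 10.6%, the ends being without chromosome 5 and without T24. The nearest neighbouring bin alone gave 9.07% of bins in extensions, 1.05% in closed blocks and 23.7% in new blocks. The median border gave 53.8% in extensions and 12.3% in closed blocks. With bins under the 10th percentile left out, none of 119 runs could be classed, as bins near a border are then without a score, and bridging them, an alternative chosen after seeing the data, gave 53.6% in extensions. The median run was 300 Kb among runs of at least 2 bins. The difference in G and C content was −1.83 percentage points within quartiles of parental score, −4.79 at 3 or more bins from parental B, −5.17 without bins under the 10th percentile, and −4.66 to −4.25 with 1 chromosome left out. That in gene starts per bin was −0.299, −0.900, −0.936 and −0.877 to −0.752 under the same settings. The share of genes was 5.25% for all annotated genes and 2.58% for whole gene bodies. No difference changed sign under these settings, the quartiles being pooled. Of 37 values outside the left-out series, 16 stayed within the interval of the main value. Where no construction is given, the cause of a shift was not tested. No paired analysis was possible because there was a single library for each condition and no result came from a test.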
